A study of Mus musculus with 8 samples.

Results

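The genes of cholesterol synthesis, esterification and export were followed in livers of mice that lack FoxO1 in myeloid cells and of their wild-type littermates. The set was a list of 32 genes that cover the enzymes from acetyl-CoA to cholesterol, the SREBP-2 system that controls them, lysosomal release, esterification and efflux, and its members were found in the count table by gene symbol. All 32 were among the 46517 genes of the table, and 31 had enough counts to be tested, against 13278 genes in all. The 8 mice were male C57BL/6 animals aged 31 weeks that had received a NASH diet for 25 weeks from the age of 6 weeks and were fasted for 16 hours before the liver was taken. The 4 MøFoxO1-KO mice (numbers 26 to 29) carried floxed FoxO1 alleles and Cre recombinase driven from the lysozyme 2 locus, which is active in macrophages and other myeloid cells, whereas the 4 WT littermates (numbers 22 to 25) carried the floxed alleles without Cre. RNA came from whole liver, so it also held transcripts of hepatocytes and other cells that the Cre does not target. Foxo1 itself averaged 404 ± 73.9 normalized counts in WT mice and 359 ± 73.4 in MøFoxO1-KO mice (SD, n = 4 each), a log2 fold change of -0.17 (edgeR, adjusted P = 0.686), so the bulk data do not verify the deletion.

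Hepatocytes make cholesterol in the endoplasmic reticulum from acetyl-CoA through mevalonate, squalene and lanosterol. When membrane cholesterol is low, SCAP carries the precursor of the transcription factor SREBP-2 to the Golgi, where proteases release the active factor, which raises transcription of the synthesis genes, and when sterols are plentiful INSIG proteins hold the complex back. Surplus cholesterol is stored as ester by the SOAT enzymes, loaded onto apolipoproteins by ABCA1 and ABCG1, or secreted into bile by the ABCG5 and ABCG8 pair, genes that the oxysterol receptor LXR activates.

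Because these genes are known to share control elements upstream of their start sites, 7 promoter windows are shown, chosen for the reasons given below. Each holds 250 bases before and 50 bases after the start of the gene, 5′ to 3′ on the strand of the gene, from RefSeq on GRCm38.p6. Capitals mark every match, on either strand, to CCAAT, the letters bound by NF-Y, which read ATTGG on the other strand, and to TCACNCCA or CACCCCAC, letters of sterol regulatory elements. The windows lie at chr13:119690101-119690400 (plus strand), chr8:64733529-64733828 (minus), chr15:82147019-82147318 (plus), chr19:6067801-6068100 (minus), chrX:8193463-8193762 (minus), chr17:12960676-12960975 (minus) and chr17:84682962-84683261 (minus). Hmgcs1, Msmo1 and Srebf2 are shown because they were the members with TCACNCCA, Tm7sf2, Ebp and Acat2 because of their values between the groups, and Abcg5 because its window overlaps 1 of Abcg8.
Hmgcs1: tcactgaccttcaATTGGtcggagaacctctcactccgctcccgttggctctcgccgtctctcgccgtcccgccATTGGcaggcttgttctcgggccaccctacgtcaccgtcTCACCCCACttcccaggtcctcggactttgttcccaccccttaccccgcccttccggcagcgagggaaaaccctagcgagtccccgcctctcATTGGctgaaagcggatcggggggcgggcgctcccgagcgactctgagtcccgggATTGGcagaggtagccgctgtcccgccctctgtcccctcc
Msmo1: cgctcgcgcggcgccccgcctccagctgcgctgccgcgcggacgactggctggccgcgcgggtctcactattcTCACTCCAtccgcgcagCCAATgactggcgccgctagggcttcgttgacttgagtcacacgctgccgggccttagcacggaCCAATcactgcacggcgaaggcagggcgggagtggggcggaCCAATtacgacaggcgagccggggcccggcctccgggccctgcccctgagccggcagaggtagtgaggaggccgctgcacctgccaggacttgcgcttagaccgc
Srebf2: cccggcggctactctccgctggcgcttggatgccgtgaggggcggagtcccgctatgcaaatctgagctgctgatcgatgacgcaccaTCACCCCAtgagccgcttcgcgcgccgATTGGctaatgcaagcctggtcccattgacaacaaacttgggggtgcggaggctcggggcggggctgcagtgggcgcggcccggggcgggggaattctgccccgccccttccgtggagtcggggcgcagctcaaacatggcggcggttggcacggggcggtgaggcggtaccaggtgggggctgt
Tm7sf2: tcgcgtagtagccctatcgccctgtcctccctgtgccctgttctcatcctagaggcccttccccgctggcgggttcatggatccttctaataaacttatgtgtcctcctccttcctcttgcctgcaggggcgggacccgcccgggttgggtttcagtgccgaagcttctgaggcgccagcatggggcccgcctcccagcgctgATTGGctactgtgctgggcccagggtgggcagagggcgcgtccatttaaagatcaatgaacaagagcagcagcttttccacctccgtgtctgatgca
Ebp: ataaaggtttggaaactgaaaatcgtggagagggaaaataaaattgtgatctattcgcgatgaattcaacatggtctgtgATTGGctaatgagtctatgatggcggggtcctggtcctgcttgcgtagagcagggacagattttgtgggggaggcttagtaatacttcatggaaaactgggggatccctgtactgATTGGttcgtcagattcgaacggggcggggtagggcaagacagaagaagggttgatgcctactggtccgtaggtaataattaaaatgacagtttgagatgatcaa
Acat2: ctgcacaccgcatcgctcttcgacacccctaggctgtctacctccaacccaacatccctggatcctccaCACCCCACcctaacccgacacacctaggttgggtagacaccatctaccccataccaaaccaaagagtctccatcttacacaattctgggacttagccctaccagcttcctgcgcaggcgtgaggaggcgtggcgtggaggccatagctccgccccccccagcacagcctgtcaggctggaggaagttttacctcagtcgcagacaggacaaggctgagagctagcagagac
Abcg5: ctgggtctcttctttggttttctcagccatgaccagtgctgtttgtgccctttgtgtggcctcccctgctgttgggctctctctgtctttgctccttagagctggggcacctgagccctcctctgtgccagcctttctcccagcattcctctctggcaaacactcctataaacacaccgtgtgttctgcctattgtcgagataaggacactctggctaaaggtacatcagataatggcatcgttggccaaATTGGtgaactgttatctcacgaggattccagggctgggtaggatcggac

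A window was found for 25 of the 32 members. CCAAT occurred in 22 of these 25, among them 14 of 15 synthesis enzymes, compared with 41.1% of all 27025 genes with a window and 42.6% of the 10090 tested genes with one. Acat2, Scap and Abca1 were the members without it. TCACNCCA was in only 3 of the 25 members, 2 of them among the 15 synthesis enzymes. It was held by 4.97% of all genes with a window and 4.54% of the tested genes with one. The match began 137 bases before the start in Hmgcs1, 177 in Msmo1 and 162 in Srebf2. In Hmgcs1 the match ran on to TCACNCCAC, present in 1.44% of all genes with a window. It overlapped a CACCCCAC match, a motif that 3.3% of these genes held and that Acat2 held as well. The E-box palindrome TCACGTGA was in none of the 25 members with a window and in 1.12% of all genes with one. Abcg5 and Abcg8 lie on opposite strands of chromosome 17, and their windows at start sites 110 bases apart shared 209 bases. RefSeq also lists an Abcg8 start 6709 bases away, whose window shares none with that of Abcg5. These matches describe the letters of the windows and do not show binding. No window was read for Fdps, Fdft1, Sqle, Stard4, Npc1, Soat2 and Abcg1.

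Total counts lay between 15253218 and 18025481 per mouse, and mitochondrial genes held between 4.16 and 6.33% of them. The summed counts of 6 hepatocyte markers exceeded those of every other marker list in all 8 livers. The summed normalized counts of 14 macrophage markers ranged from 4348 to 7843 in WT and from 5112 to 22279 in MøFoxO1-KO livers, highest in mice 29 and 27. In bulk liver, fewer cells of a type and less RNA per cell cannot be told apart. Nothing in the labels says how litters were spread over the groups, and P values measure the spread between these mice.

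Across the sterol genes, none of the 31 tested members reached an adjusted P under 0.05 in edgeR between MøFoxO1-KO and WT livers. This held with or without the limit on fold change (absolute log2 fold change over 1.5), and the smallest adjusted P was 0.234 for Npc1. Over all tested genes, 0.294% passed the first rule and 0.188% passed both. DESeq2 and limma-voom likewise called 0 members by either rule, where 4.02% and 0.181% of all genes with an adjusted P passed the first rule. At an unadjusted P under 0.05, edgeR placed 1 member higher (Ebp) and 2 lower (Acat2 and Npc1) in MøFoxO1-KO livers, where 8.65% of all tested genes were higher and 8.06% lower by that rule. DESeq2 and limma-voom gave the same 3 genes. In 1 member, Tm7sf2, the 4 MøFoxO1-KO values all lay above the 4 WT values, and in 0 members they all lay below, against 5.00% and 4.71% of all tested genes. This count depended on the scaling, since with total counts in place of TMM Tm7sf2 overlapped and Acat2 was the member whose groups did not, lower in MøFoxO1-KO livers. Each of these counts of members was a smaller share of the 31 than its background share.

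The log2 fold changes of the 31 members, MøFoxO1-KO over WT, had a median of 0.002, beside -0.014 for all tested genes, with 16 above and 15 below 0. Their median absolute size was 0.196, beside 0.217 for all tested genes. They ran from -1.05 for Idi1, a gene with 7 to 66 counts per liver, to 0.41 for Abcg5. The 95% confidence interval lay within 1 log2 unit of 0 for 25 of the 31 members but within a 1.5-fold difference for only 10, so larger differences were not excluded for the other 21.

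**Figure D1:**
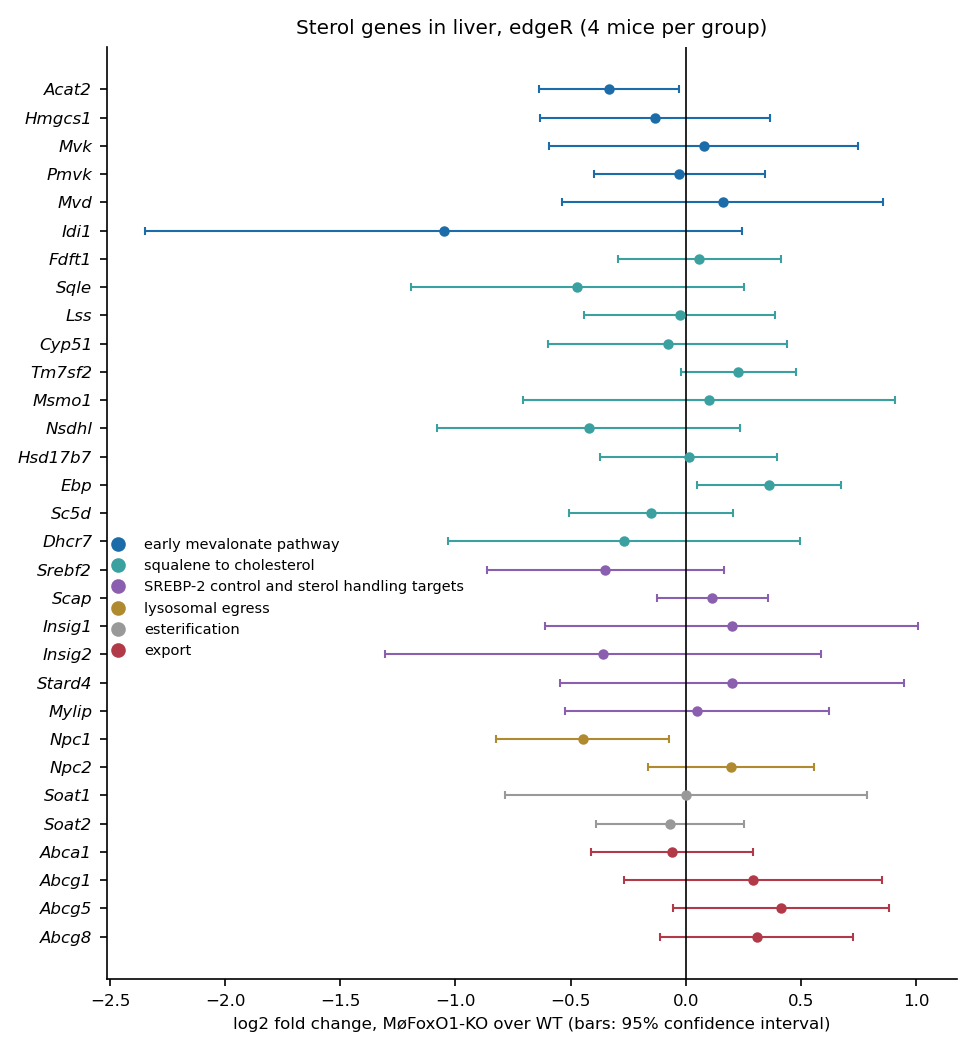
Log2 fold change of each tested member in MøFoxO1-KO over WT livers (points, edgeR) with its 95% confidence interval (bars), coloured by role. The intervals of Acat2, Ebp and Npc1 leave out 0, without adjustment for the 13278 genes tested, and the points lie on both sides of 0 in every role.

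Levels were compared between genes per length, as FPKM computed from TMM-normalized counts and the summed exon length. On that scale Insig2 (mean of the 8 mice 81.8), Sc5d (73.0), Ebp (70.9) and Abcg5 (66.8) were the most abundant members. Sc5d and Ebp act in late steps of synthesis, but levels did not follow the order of the steps. Dhcr7, which makes the final reduction, stood at 3.59, and Hmgcs1, near the start, at 36.9. Several enzymes between these ends were low on this scale, which divides by the length of all annotated exons. Idi1, which isomerizes isopentenyl diphosphate, stood at 0.395, Sqle, the squalene epoxidase, at 0.446, and Lss, the lanosterol synthase, at 1.05. Lss had 133 to 248 counts per liver over 10787 bases of exon. Mvk, at 2.79 FPKM, had 74 to 209 counts over 2675 bases. Fdps, the farnesyl diphosphate synthase, was at 0.0829 with 2 to 10 counts per liver and was the member left out of the tests. Counts of Fdps, Idi1 and Msmo1 rest on how reads with several matches were counted, since Idi1 has processed pseudogenes at 97.7% identity or more, Msmo1 shares stretches of about 200 bases with other transcripts, and Fdps shares exons with a gene on the same strand over 26.7% of its exon length.

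**Figure D2:**
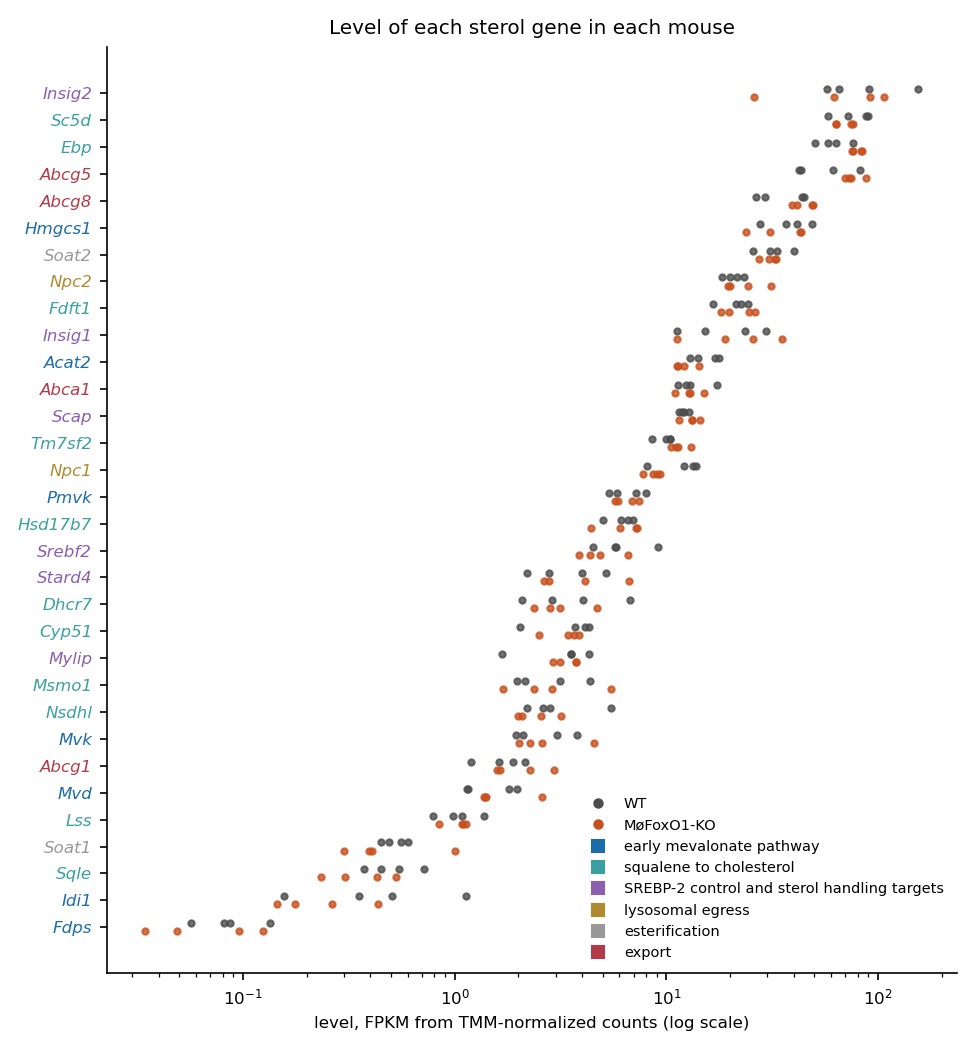
Level of each of the 32 members in each mouse, as FPKM from TMM-normalized counts on a log axis, with gene names coloured by role. Members span from 0.0829 (Fdps) to 81.8 (Insig2) as means of 8 mice, and the WT and MøFoxO1-KO points overlap for every gene but Tm7sf2, which overlaps too when scaled by total counts. Fdps shares 26.7% of its exon length with a gene on the same strand, so its level rests on how reads were counted.

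In the early mevalonate pathway, 6 of 7 enzymes were tested and their median log2 fold change was -0.08. It was 0.04 without WT mouse 23, -0.19 without WT mouse 24 and -0.25 without MøFoxO1-KO mouse 26. Hmgcs1, which condenses acetoacetyl-CoA and acetyl-CoA to HMG-CoA, was the most abundant of them per length (36.9 FPKM). It had 1950, 2586, 1469 and 2192 normalized counts in WT mice 22, 23, 24 and 25 and 2305, 2269, 1268 and 1632 in MøFoxO1-KO mice 26, 27, 28 and 29. The groups overlapped between 1469 and 2305, with a log2 fold change of -0.13 (SE 0.224, 95% confidence interval -0.63 to 0.37, adjusted P = 0.806).

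Acat2 encodes the cytosolic acetoacetyl-CoA thiolase of the first step and is not the sterol acyltransferase of that older name, which is Soat2. Its normalized counts were 741, 709, 538 and 586 in WT mice 22 to 25 and 597, 467, 508 and 472 in MøFoxO1-KO mice 26 to 29. The lower WT values, of mice 24 and 25, fell within the MøFoxO1-KO range, and means were 644 ± 96.9 and 511 ± 60.2 (SD, n = 4 each). The log2 fold change was -0.33 (SE 0.137, 95% confidence interval -0.64 to -0.03) with an unadjusted edgeR P of 0.0352 and an adjusted P of 0.262, and the exact permutation test, two-sided, gave P = 0.0857. The unadjusted P remained under 0.05 in 3 of the 8 fits with a mouse left out. Acat2 is also 97.7% identical over 1477 bases to Acat3, which had 3.35 to 6.45 times its normalized count. A stretch of 445 bases is 98.7% identical to Tcp1, which had 1286 to 2097 counts per liver. The ratio of Acat3 to Acat2 was 4.101 ± 1.196 in WT mice and 5.65 ± 0.785 in MøFoxO1-KO mice (SD, n = 4 each, exact two-sided permutation P = 0.0857). How reads were split between these genes is not known, and the sum of Acat2 and Acat3 is mostly Acat3. When libraries were scaled by total counts alone, without TMM, Acat2 ran from 36.8 to 47.4 CPM in WT and from 25.6 to 34.6 in MøFoxO1-KO livers, with no overlap.

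The remaining enzymes of this stretch had smaller or less precise differences. Log2 fold changes were 0.08 for Mvk and -0.03 for Pmvk, the kinases that phosphorylate mevalonate and its product, and 0.16 for Mvd, the decarboxylase, with adjusted P values of 0.922, 0.952 and 0.836. Mvd was high in MøFoxO1-KO mouse 26 alone. Idi1 had normalized counts from 8.96 to 64.9 in WT and from 8.36 to 24.9 in MøFoxO1-KO livers, and its log2 fold change of -1.05 had a 95% confidence interval from -2.35 to 0.25 (adjusted P = 0.399). WT mouse 23 supplied the highest value, and the log2 fold change was -0.39 when that mouse was left out.

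From squalene to cholesterol, all 11 enzymes were tested, with a median log2 fold change of -0.03, 5 above and 6 below 0. The median was 0.09 without WT mouse 23 and below 0 without WT mouse 25 (-0.15) or MøFoxO1-KO mouse 26 (-0.16). Ebp, the sterol isomerase that moves the ring double bond, had 2409, 2201, 1911 and 2897 normalized counts in WT mice 22 to 25 and 3156, 2896, 2844 and 3196 in MøFoxO1-KO mice 26 to 29. Only WT mouse 25 reached the MøFoxO1-KO range. Means were 2355 ± 415 and 3023 ± 179 (SD, n = 4 each), a log2 fold change of 0.36 (SE 0.141, 95% confidence interval 0.05 to 0.67). The unadjusted edgeR P was 0.028, the adjusted P 0.245 and the exact two-sided permutation P 0.0857. When each of the 8 mice was left out in turn, 4 fits kept the unadjusted P under 0.05.

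Tm7sf2, a sterol C14 reductase, was the member with no overlap after TMM normalization. Its normalized counts were 568, 597, 486 and 594 in WT mice 22 to 25 and 648, 744, 605 and 634 in MøFoxO1-KO mice 26 to 29, so that the lowest MøFoxO1-KO value exceeded the highest WT value by a narrow margin. The log2 fold change was 0.23 (SE 0.112, 95% confidence interval -0.02 to 0.48) with an unadjusted edgeR P of 0.0693 and an adjusted P of 0.345. The exact two-sided permutation test gave P = 0.0286, the smallest that 4 against 4 mice allow. Scaled by total counts, the groups overlapped, at 34.2 to 37.2 CPM in WT and 36.1 to 40.8 in MøFoxO1-KO livers. Tm7sf2 shares 12.1% of its exon length with Vps51 on the same strand.

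Sc5d, the sterol C5 desaturase and the most abundant enzyme per length, had 3430, 3368, 2742 and 2204 normalized counts in WT mice 22 to 25 and 2897, 2852, 2407 and 2421 in MøFoxO1-KO mice 26 to 29. The MøFoxO1-KO values lay inside the WT range, with a log2 fold change of -0.15 (SE 0.159, adjusted P = 0.677). For the 8 other enzymes, log2 fold changes ranged from -0.47 for Sqle to 0.10 for Msmo1, the C4 methyl oxidase. Those of Nsdhl (-0.42) and Dhcr7 (-0.27), which act late in the removal of methyl groups and in the final reduction, shrank to -0.05 and turned to 0.12 without WT mouse 23. Fdft1, the squalene synthase, Lss, Cyp51 and Hsd17b7 lay between -0.08 and 0.06. Fdft1 shares 18.3% of its exon length with Ctsb on the opposite strand, and strand use in the counting is not given in the sources used here.

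**Figure D3:**
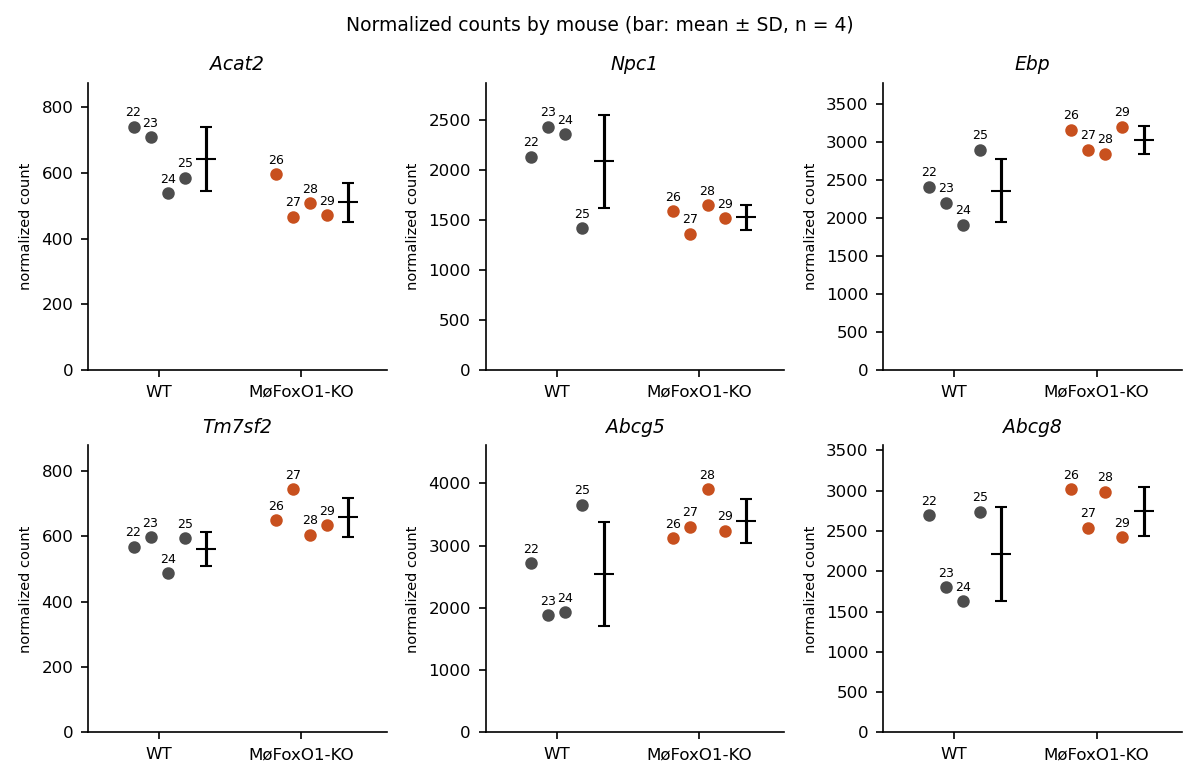
Normalized counts of Acat2, Npc1, Ebp, Tm7sf2, Abcg5 and Abcg8 in each mouse (points with mouse numbers) with the mean ± SD of each group (n = 4). Groups are separate for Tm7sf2 alone after TMM and, scaled by total counts, for Acat2 alone, and WT mouse 25 falls in the MøFoxO1-KO range for Npc1, Ebp, Abcg5 and Abcg8.

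The 6 genes of SREBP-2 control and sterol handling had a median log2 fold change of 0.08, which was -0.12 without MøFoxO1-KO mouse 26. Srebf2, which encodes SREBP-2, averaged 515 ± 163 normalized counts in WT mice and 404 ± 98.0 in MøFoxO1-KO mice (SD, n = 4 each), a log2 fold change of -0.35 (SE 0.231, adjusted P = 0.485), and it was -0.11 without WT mouse 23. Scap was the most even member, from 1405 to 1565 in WT and from 1404 to 1758 in MøFoxO1-KO livers (log2 fold change 0.11, SE 0.108). Stard4, a sterol carrier (0.20), and Mylip, the ubiquitin ligase that degrades lipoprotein receptors (0.05), had adjusted P values of 0.804 and 0.945.

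The INSIG genes varied widely between the mice of each group. Insig2 had 3714, 8834, 3256 and 5137 normalized counts in WT mice 22 to 25 and 3548, 6083, 1472 and 5234 in MøFoxO1-KO mice 26 to 29. Its lowest value, in mouse 28, and its highest, in mouse 23, fell in different groups, and the log2 fold change was -0.36 (SE 0.425, adjusted P = 0.718). Insig1, itself an SREBP-2 target, ranged from 569 to 1503 in WT and from 572 to 1784 in MøFoxO1-KO livers (log2 fold change 0.20, SE 0.364). The ratio of Insig2 to Insig1 normalized counts therefore ran from 1.13 in mouse 28 to 9.15 in mouse 29, both MøFoxO1-KO.

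Npc1 and Npc2 hand cholesterol from the lysosome to other membranes, Npc2 as the soluble carrier and Npc1 as the membrane protein. Npc1 had 2130, 2429, 2354 and 1419 normalized counts in WT mice 22 to 25 and 1587, 1360, 1648 and 1515 in MøFoxO1-KO mice 26 to 29. WT mouse 25 lay among the MøFoxO1-KO values and the other 3 WT mice above them, with means of 2083 ± 461 and 1528 ± 124 (SD, n = 4 each). The log2 fold change was -0.45 (SE 0.169, 95% confidence interval -0.82 to -0.07), with an unadjusted edgeR P of 0.0242, an adjusted P of 0.234 and an exact two-sided permutation P of 0.114. Without WT mouse 25 the log2 fold change was -0.59 and the adjusted edgeR P 0.0979, and when each mouse was left out in turn the unadjusted P stayed under 0.05 in 5 of 8 fits. An offset for gene length also took it to 0.05 or above.

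Npc2 was the more abundant of the pair per length (22.3 FPKM) and had 1242, 983, 1072 and 1152 normalized counts in WT mice 22 to 25 and 1047, 1304, 1071 and 1675 in MøFoxO1-KO mice 26 to 29. The groups overlapped and mouse 29 was the highest, with a log2 fold change of 0.20 (SE 0.162, adjusted P = 0.587). Without mouse 29 it was 0.04.

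Soat2, the acyltransferase of hepatocytes, exceeded Soat1, the form prominent in macrophages, at 31.6 against 0.525 FPKM. Soat2 had 1208, 929, 1453 and 1119 normalized counts in WT mice 22 to 25 and 1197, 1113, 1188 and 993 in MøFoxO1-KO mice 26 to 29, all 4 of the latter inside the WT range (log2 fold change -0.07, SE 0.144, adjusted P = 0.849). Soat1 had 72.1, 78.7, 89.5 and 96.6 in WT mice 22 to 25 and 65.2, 63.3, 48.4 and 161 in MøFoxO1-KO mice 26 to 29. Group means were alike, at 84.2 ± 10.9 and 84.5 ± 51.7 (SD, n = 4 each), but 3 MøFoxO1-KO mice lay below every WT mouse and mouse 29 above all of them. The log2 fold change was 0.002 (SE 0.354), and without mouse 29 it was -0.52 (edgeR, adjusted P = 0.417).

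Mouse 29 also had the highest sum of the 14 macrophage markers, 22279 normalized counts against 4348 to 14441 in the other 7 livers. Of these markers, 7 had an unadjusted P under 0.05 and were higher in MøFoxO1-KO livers, 2 were lower, and 1, Gpnmb, had an adjusted P under 0.05 and was lower (edgeR, 0.0382). Soat1, Npc2 and Abcg1 were picked because they were highest in that mouse. Ebp was highest there too, and the share of all tested genes highest in mouse 29 is not given here. MøFoxO1-KO mouse 27, second in the marker sum, had 63.3 for Soat1, 1304 for Npc2 and 150 for Abcg1. The part of macrophages in the values of Soat1, Npc2 and Abcg1 was not tested.

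**Figure D4:**
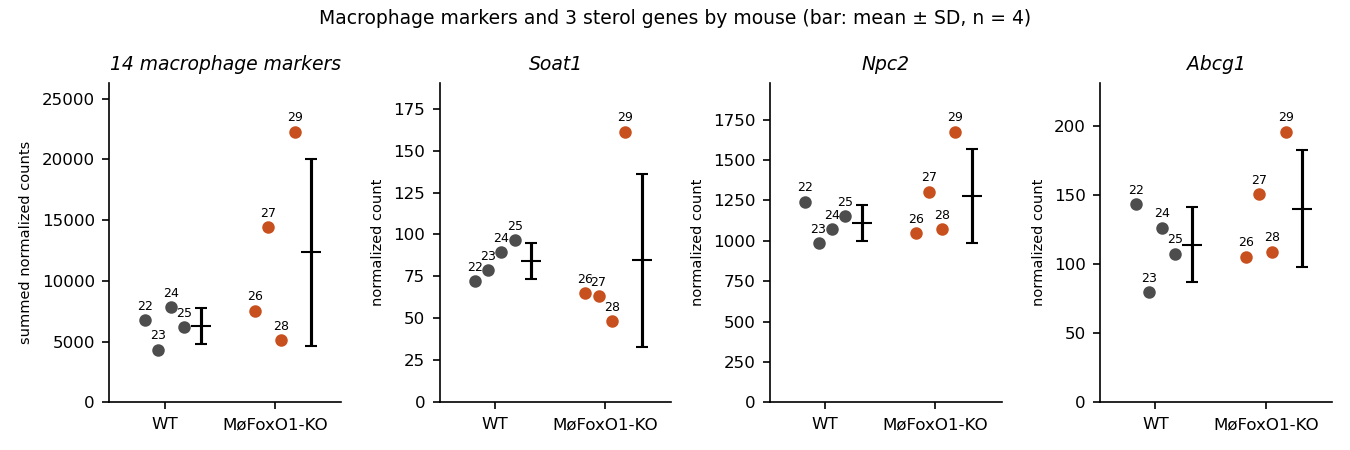
Summed normalized counts of 14 macrophage markers, and normalized counts of Soat1, Npc2 and Abcg1, in each mouse (points with mouse numbers) with mean ± SD (n = 4). MøFoxO1-KO mouse 29 is the highest in all 4 panels, and the marker sum of the other MøFoxO1-KO mice runs from 5112 to 14441.

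Among the 4 export genes the median log2 fold change was 0.30 (0.19 without WT mouse 23), with 3 above 0, and none had an unadjusted P under 0.05. Abcg5 and Abcg8 encode the subunits of a heterodimeric transporter, which secretes cholesterol into bile. Abcg5 had 2722, 1879, 1927 and 3661 normalized counts in WT mice 22 to 25 and 3117, 3306, 3909 and 3242 in MøFoxO1-KO mice 26 to 29. Abcg8 had 2694, 1803, 1627 and 2739 in WT mice 22 to 25 and 3019, 2542, 2988 and 2420 in MøFoxO1-KO mice 26 to 29. For both genes WT mice 23 and 24 were the lowest, and WT mice 22 and 25 overlapped or approached the MøFoxO1-KO values.

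The log2 fold changes were 0.41 for Abcg5 (SE 0.211, adjusted P = 0.359) and 0.31 for Abcg8 (SE 0.188, adjusted P = 0.444). The ratio of Abcg8 to Abcg5 counts was 0.886 ± 0.111 in WT and 0.812 ± 0.105 in MøFoxO1-KO livers (SD, n = 4 each, exact two-sided permutation P = 0.343). Without WT mouse 25 the log2 fold change of Abcg5 was 0.64 (edgeR, adjusted P = 0.149), and without WT mouse 24 that of Abcg8 was 0.18. Abca1, which lipidates apolipoprotein A-I, had 2295 ± 447 and 2202 ± 288 normalized counts (SD, n = 4 each, log2 fold change -0.06), and Abcg1 had 114 ± 27.3 and 140 ± 42.4 (SD, n = 4 each, log2 fold change 0.29), 0.09 without mouse 29.

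The synthesis enzymes also differed between mice of the same genotype. For each of the 17 tested enzymes, the log2 ratio of a mouse to the mean of all 8 mice was taken and averaged over the enzymes. These averages were 0.11, 0.41, -0.22 and -0.35 in WT mice 22 to 25 and 0.26, -0.20, -0.21 and -0.27 in MøFoxO1-KO mice 26 to 29. Mice 23 and 26 were thus the highest of their groups, and the group means, -0.01 ± 0.34 and -0.11 ± 0.25 (SD, n = 4 each), differed by less than the spread within each group.

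WT mouse 23 was the highest WT mouse for 12 of the 17 enzymes, where it was so for 35.5% of all tested genes. MøFoxO1-KO mouse 26 was the highest of its group for 13 of 17, where it was so for 26.9% of all tested genes. In mouse 26, 16 of the 17 enzymes lay above their own mean of 8 mice, and in mouse 23 15 did, compared with 2 to 12 in the other mice. The share of all tested genes above their own mean is not given here. The average log2 ratio over all tested genes lay between -0.13 (mouse 23) and -0.04 (mouse 24), with -0.11 in mouse 26. Insig1 and Stard4, further SREBP-2 targets, were highest in mouse 26, while Srebf2 was highest in mouse 23. Mouse 23 was also the library with the lowest sum of 5 endothelial markers (1397 normalized counts, against 2264 to 3627 in the others) and of the macrophage markers, and the part of cell composition in its values was not tested.

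**Figure D5:**
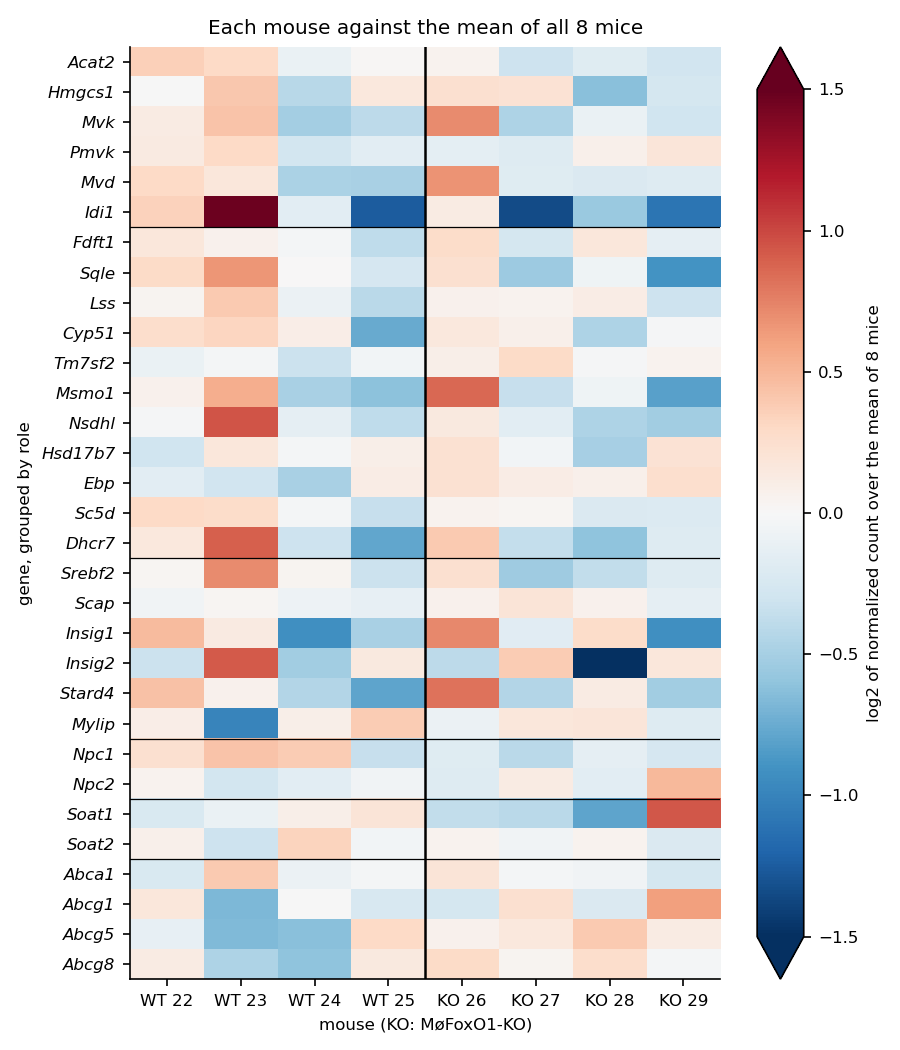
Log2 ratio of the normalized count of each tested member in each mouse to the mean of the 8 mice (colour), with genes ordered by role and the groups divided by a vertical line. WT mouse 23 and MøFoxO1-KO mouse 26 are above the mean for 15 and 16 of the 17 synthesis enzymes, and the other 6 mice for 2 to 12. The share of all tested genes above their mean is not given.

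Of 28 further genes of sterol regulation and transport, 27 were tested and 0 had an adjusted P under 0.05 in edgeR. At an unadjusted P under 0.05, MøFoxO1-KO livers had 1 of them higher and 3 lower, beside 8.65% and 8.06% of all tested genes, and the median log2 fold change was -0.16. Rnf145, a ubiquitin ligase of the endoplasmic reticulum that responds to sterols, had 811, 674, 773 and 555 normalized counts in WT mice 22 to 25 and 369, 312, 587 and 404 in MøFoxO1-KO mice 26 to 29. Only mouse 28 among the latter reached the WT range. Its log2 fold change was -0.75 (SE 0.199, edgeR adjusted P = 0.131), and the exact two-sided permutation test gave P = 0.0571. The adjusted P ran from 0.0242 to 0.361 over the alternatives and was under 0.05 with DESeq2 (0.0242) and in edgeR without mouse 28 (0.0385).

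Nr1h3, which encodes LXRα, averaged 1500 ± 64.5 normalized counts in WT mice and 1858 ± 174 in MøFoxO1-KO mice (SD, n = 4 each). After TMM every MøFoxO1-KO value lay above every WT value. By total counts the groups overlapped, since WT mouse 22 (1681 of 16694093 counts) had a larger share than MøFoxO1-KO mouse 26 (1772 of 18025481). The log2 fold change of Nr1h3 was 0.31 (SE 0.108, adjusted P = 0.212). Erlin2, which takes part in the degradation of sterol-regulated proteins, was lower in all 4 MøFoxO1-KO mice (495 ± 69.3 against 396 ± 39.2, SD, n = 4 each, log2 fold change -0.32, adjusted P = 0.252). Of the 27 tested further genes, 1 was higher and 1 lower without overlap after TMM, Nr1h3 and Erlin2. Over all tested genes these shares were 5.00% and 4.71%. Lpin1, an SREBP-responsive phosphatidate phosphatase, had a log2 fold change of -0.59 (adjusted P = 0.296).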

How the data were processed

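Polyadenylated RNA of 8 livers, 4 per group, was sequenced with a NEBNext Ultra library kit. The authors deposited 1 table of raw read counts per Ensembl gene without normalization. The submitters' processing notes name STAR, featureCounts and mm10, and versions, strand setting and the treatment of reads with several matches are not given in the sources used here. Symbols and exon overlaps came from GENCODE M21, and coordinates and exon lengths from the deposited table. The table has 46517 genes, of which 13278 passed filterByExpr (minimum count 10, minimum total 15). After TMM normalization, groups were compared by edgeR (version 4.0.16, R 4.3.3) with its quasi-likelihood test, no covariates and Benjamini-Hochberg adjustment over all tested genes. The common biological coefficient of variation was 0.256. SE was the absolute log2 fold change divided by the square root of F. Normalized counts were counts scaled to the mean effective library. Single values were compared by exact two-sided permutation over the 70 splits of 4 and 4 mice. Total counts of 15253218 to 18025481 per mouse limit the precision for genes with few counts.

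Alternatives were DESeq2 1.42.0, limma-voom (limma 3.58.1), other normalizations and filters, a robust fit, length and GC offsets, and leaving out each mouse. Scripts were checked on simulated data. The members, the lists and the markers (with transferrin under its symbol Trf) were chosen with earlier results of these data known. Values in every mouse are given for members with an unadjusted P under 0.05 or without overlap and for the most abundant member of each role, and of the further genes the 4 with the smallest P are named. Insig1, Soat1, Abcg8 and the other members given per mouse or by range were added after their values were seen. Near-identical transcripts were sought with blastn 2.17.0 at 95% identity over 200 bases.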

Additional observations from a re-analysis of the deposited data

Results flagged for a closer look

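Within each group of 4 mice, the highest or lowest value was set against the others by Dixon's ratio at its 95% limit. Of 76 groups examined, 5 passed, where chance gives about 1 in 20, or 3.8. Mvd had 74.8 normalized counts in MøFoxO1-KO mouse 26, and 39.9 to 40.6 in the other 3 MøFoxO1-KO mice. Lss had 149 in MøFoxO1-KO mouse 29, and 192 to 200 in the others of its group. Soat1 had 161 in MøFoxO1-KO mouse 29, and 48.4 to 65.2 in the others. The summed normalized counts of Npc1 and Npc2 were 2571 in WT mouse 25, against 3372 to 3426 in the other WT mice, and 3189 in MøFoxO1-KO mouse 29, against 2634 to 2720 in the others of its group.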

How the results depend on the processing

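The count of members with an adjusted P under 0.05 was 0 under every alternative run, and the members' median log2 fold change stayed between -0.13 (without MøFoxO1-KO mouse 26) and 0.08 (without WT mouse 23). Members with an unadjusted P under 0.05 and higher numbered 2 with upper-quartile normalization and 2 with the length offset, which added Tm7sf2. With total count scaling 1 member did not overlap, Acat2 in place of Tm7sf2. Those lower numbered 1 with the length offset and 1 with the offset for length and GC content, which was added after seeing the data, since Npc1 was lost. Leaving out 1 mouse gave 0 to 2 members higher and 0 to 3 lower (0 in both directions without WT mouse 23). It gave 1 to 4 members without overlap, with 4 without WT mouse 25, 3 without mouse 29 and 2 without mouse 26. Groups separate more readily with fewer mice. No share over all tested genes is given for these smaller groups, so these counts without overlap have no background to be judged by.

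Several log2 fold changes, none past the adjusted threshold, turned sign. Pmvk was 0.002 and Lss 0.001 with upper-quartile normalization. With the offset for length, and for length and GC content, Lss was 0.089 and 0.104 and Abca1 0.057 and 0.068. Hsd17b7 was 0.00 without a filter and -0.007 with limma-voom, Soat1 -0.01 and -0.17 in the same fits, and Acat2 0.019 when summed with Acat3. Over the fits that left out 1 mouse, log2 fold changes turned sign and ran from -0.265 to 0.026 for Hmgcs1, -0.24 to 0.28 for Mvk, -0.12 to 0.08 for Pmvk, -0.13 to 0.31 for Mvd, -0.042 to 0.15 for Fdft1, -0.15 to 0.13 for Lss, -0.271 to 0.051 for Cyp51, -0.33 to 0.37 for Msmo1, -0.075 to 0.161 for Hsd17b7, -0.51 to 0.12 for Dhcr7, -0.09 to 0.46 for Insig1, -0.601 to 0.016 for Insig2, -0.15 to 0.44 for Stard4, -0.17 to 0.21 for Mylip, -0.52 to 0.21 for Soat1, -0.166 to 0.048 for Soat2 and -0.144 to 0.083 for Abca1. Apart from the Acat3 sum, which is mostly Acat3, and the mice left out, the cause was not tested. No paired analysis was possible because nothing in the labels pairs mice of the groups by litter. Precision was lowest for Idi1 (SE 0.582), which had few counts, and for Insig2 (SE 0.425), which varied widely between mice.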
